A study of Rattus norvegicus with 4 samples.

Results

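Connexins and cardiac cell junction genes were followed across the cell classes of rat hearts in a single-nucleus RNA sequencing study of myocardial infarction. The members were 10 genes named by symbol: the connexins Gja1, Gja4, Gja5 and Gjc1, and the junction genes Cdh2, Dsp, Pkp2, Dsc2, Ctnna3 and Tjp1. Of the 32623 genes in the deposited table, 8 members were found by symbol. Ctnna3 was found under the contig name AABR07044900.1 (ENSRNOG00000000373), which RefSeq's gene table for GRCr8 lists as its synonym. Pkp2 matched no row and is not analysed here, which left 9 measured members. They held between 874 UMIs (unique molecular identifiers, each 1 captured RNA molecule) for Dsc2 and 60293 for Cdh2.

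The samples were from the infarct zone of Sprague Dawley rats: infarct samples titled MI_1H, MI_6H and MI_24H, and 1 Sham sample. The treatment labels of the infarct samples give 1, 6 and 24 h with reperfusion, whereas the study's design names coronary ligation for these times and reperfused hearts apart. What the hours count from is therefore not settled here, and the sources used here do not give age, sex or how many animals made up a sample. One matrix holds 4 libraries that are told apart only by the barcode suffixes 1 to 4, and no source ties a suffix to a sample. Infarct and Sham samples could not be compared, and the values below are given by library number. With 1 library per sample and no such tie, no test was possible, and each interval covers counting error only.

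Cardiac muscle cells are held together end to end at the intercalated disc, where adherens junctions, desmosomes and gap junctions lie close to each other. Adherens junctions anchor actin, desmosomes anchor desmin filaments, and gap junctions are channels built of connexins through which current passes between cells. Connexins are also found in the vessel wall, where Gja4 and Gja5 are known from arterial endothelium and Gjc1 from mural cells.

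Libraries 1 to 4 held 7233 to 16532 barcodes. After filters and removal of doublets 8363, 12897, 14287 and 6181 nuclei were used, with medians of 1296, 602, 1884 and 2215 UMIs. Library 2 stood apart, since 87.3% of its nuclei could not be named from markers, against 0.239% in library 1, 0.931% in library 3 and 3.82% in library 4. Of the 48637 barcodes, 529 carried a sequence that another library also held. Named classes end in "-like" because they rest on marker genes alone; members and other junction genes were kept out of the clustering. Of the cardiomyocyte markers, 7 were measured and their summed level was 30951, 19741, 9241 and 12229 CPM in cardiomyocyte-like nuclei of libraries 1 to 4, against 2256, 2578, 884 and 1306 CPM in fibroblast-like nuclei. CPM are a gene's UMIs per 1000000 UMIs of the class in that library. The share of UMIs attributed to RNA outside the nuclei, from markers of other classes, was 33.4, 60.8, 71.5 and 64.5% in cardiomyocyte-like nuclei. Low levels in any class can be such RNA. The estimate pools these markers, so any that a class makes itself raise it. Pericyte markers summed to 1048, 883, 587 and 596 CPM in cardiomyocyte-like nuclei of libraries 1 to 4. They summed to 654, 505, 389 and 467 CPM in fibroblast-like and 191, 342, 165 and 120 CPM in endothelial-like nuclei. Their part in the share, and in values with free RNA taken off, was not tested.

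Promoter sequence is shown for 4 members with unlike patterns: Gja1, Dsp and Ctnna3, which were highest in cardiomyocyte-like nuclei, and Gja5, which was highest in endothelial-like nuclei. Each run is the 250 bases before the RefSeq start on GRCr8, the same window in which all promoters were searched, read 5′ to 3′ on the gene's own strand, with the motif matches in capitals. RefSeq's promoter table held 7 of the 9 measured members. The intervals are chr20:36302314-36302563 on the plus strand for Gja1, chr17:26877122-26877371 on the minus strand for Dsp, chr20:25137999-25138248 on the minus strand for Ctnna3 and chr2:187290977-187291226 on the plus strand for Gja5.
Gja1: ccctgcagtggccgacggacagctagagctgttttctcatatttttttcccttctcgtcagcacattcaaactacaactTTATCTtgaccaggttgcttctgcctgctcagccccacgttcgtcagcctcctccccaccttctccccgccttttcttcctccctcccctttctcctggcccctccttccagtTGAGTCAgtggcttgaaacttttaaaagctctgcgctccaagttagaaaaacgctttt
Dsp: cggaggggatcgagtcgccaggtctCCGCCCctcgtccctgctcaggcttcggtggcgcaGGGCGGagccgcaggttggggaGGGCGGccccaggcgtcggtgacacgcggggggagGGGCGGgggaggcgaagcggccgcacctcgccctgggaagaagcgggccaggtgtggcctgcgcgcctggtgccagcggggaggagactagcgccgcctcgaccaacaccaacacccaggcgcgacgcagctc
Ctnna3: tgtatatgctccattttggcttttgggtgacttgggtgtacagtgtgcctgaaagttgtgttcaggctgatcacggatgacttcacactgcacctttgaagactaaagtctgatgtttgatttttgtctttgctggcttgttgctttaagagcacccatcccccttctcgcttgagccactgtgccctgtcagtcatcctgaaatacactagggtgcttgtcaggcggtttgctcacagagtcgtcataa
Gja5: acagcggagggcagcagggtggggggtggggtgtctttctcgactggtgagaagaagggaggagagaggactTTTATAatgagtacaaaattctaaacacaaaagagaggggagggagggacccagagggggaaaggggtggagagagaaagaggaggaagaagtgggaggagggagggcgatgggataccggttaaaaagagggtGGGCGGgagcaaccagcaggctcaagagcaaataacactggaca
Both strands were searched for 7 motifs of transcription factors or of the core promoter. Gja1 held a match to the AP-1 letters TGANTCA at 58 to 52 bases before the start, as 6.34% of all 33469 promoters did somewhere in the window. It also held a match on the other strand to the GATA letters AGATAA at 171 to 166 bases, as 10.3% of promoters did. Dsp held 4 matches to the SP1 letters GGGCGG and Gja5 held 1, and 30.5% of all promoters held at least 1. Gja5 also held a match on the other strand to the TATA box letters TATAAA, 178 to 173 bases before the start, as 12.9% of promoters did. The TEAD letters GGAATG (12.1% of promoters), the NKX2-5 letters TNAAGTG (9.89%) and the MEF2 motif (3.41%) had no match in the 4 windows. None of the 7 motifs was found in the window of Ctnna3. Motif matches did not overlap one another. GC content was 75.2% for Dsp, 51.2% for Gja1, 54.8% for Gja5 and 47.2% for Ctnna3, against a median of 51.2% over all promoters. A match is a description of letters and not a binding site.

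The members fell into 3 patterns by the class with the highest level. Among 9 classes present in at least 3 libraries, Gja1, Cdh2, Dsp, Dsc2 and Ctnna3 had their highest median over libraries in cardiomyocyte-like nuclei. Gja4, Gja5 and Tjp1 had theirs in endothelial-like nuclei, and Gjc1 in pericyte-like nuclei. The plot of levels by class shows this for each member.

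**Figure D1:**
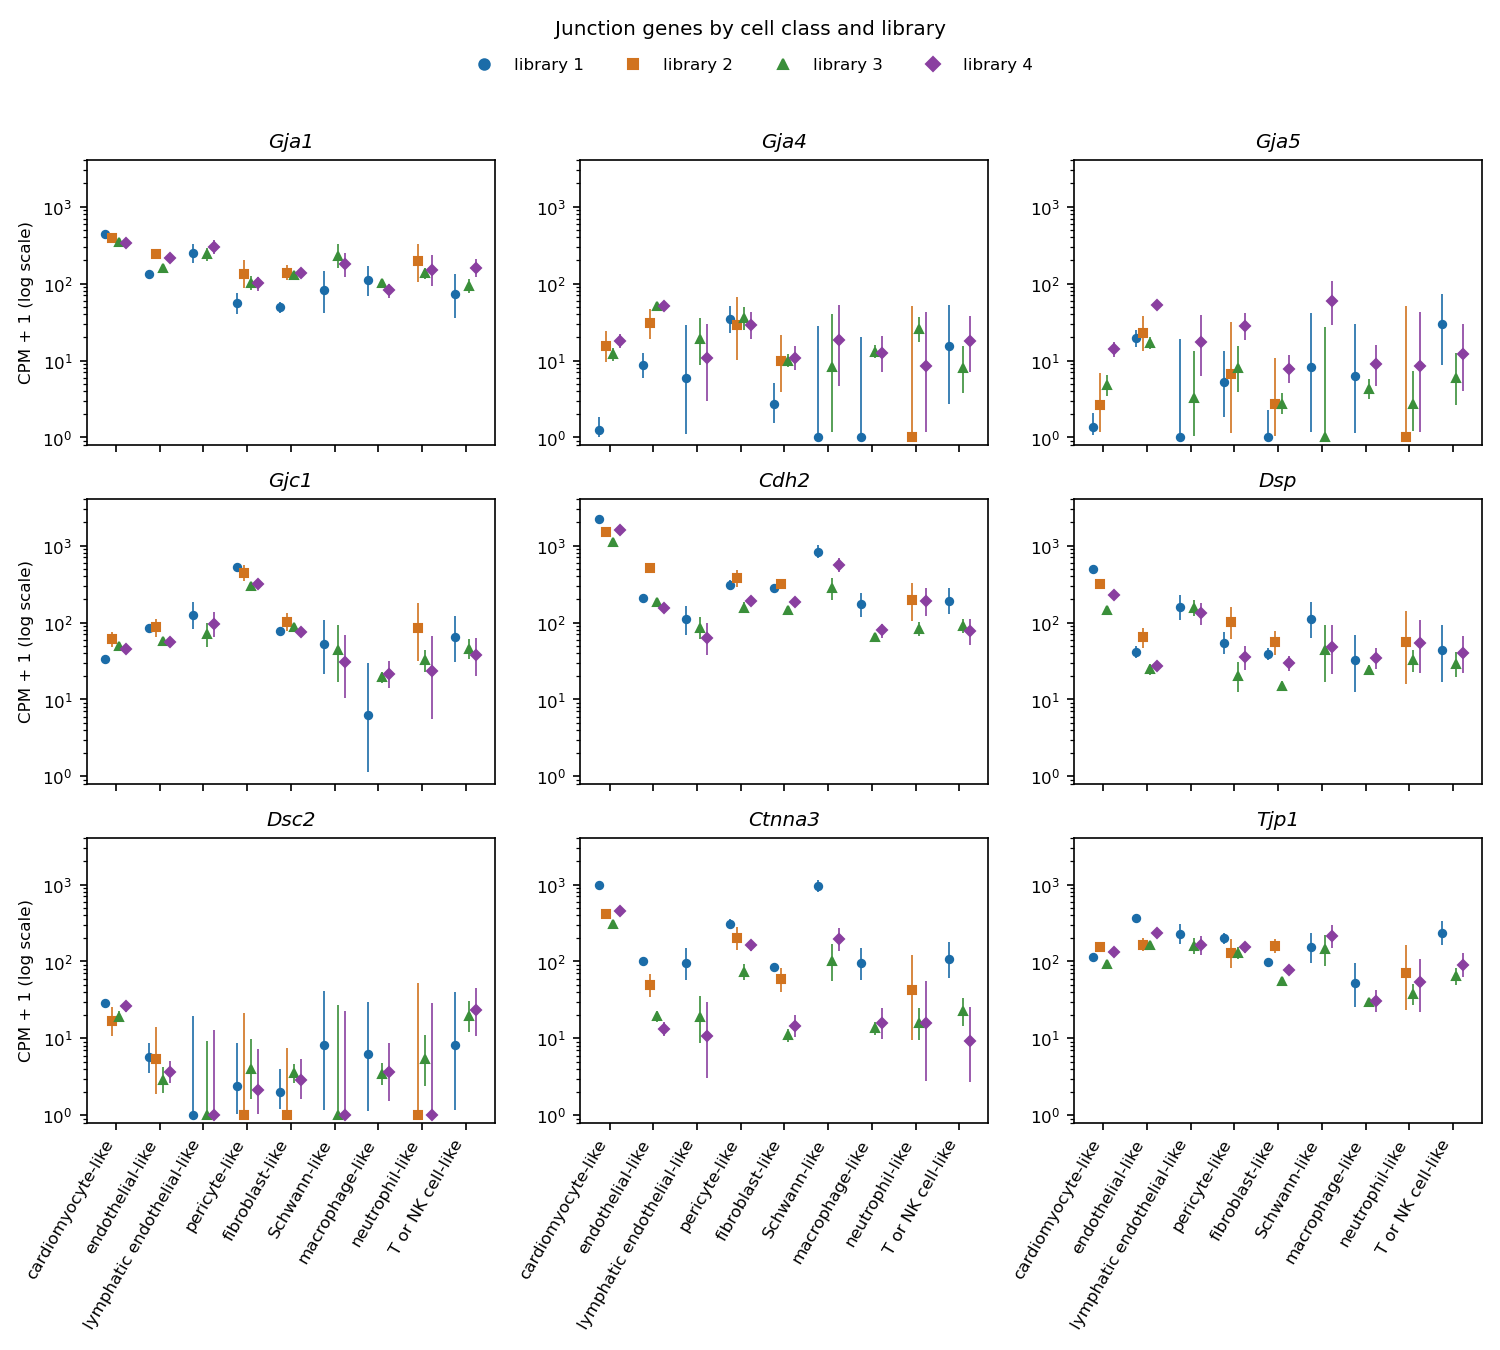
Level of each measured member (CPM + 1, log scale) by cell class, with 1 point per library and bars for exact 95% Poisson intervals; classes under 50 nuclei in a library have no point there. Cdh2 was at 1107 to 2202 CPM in cardiomyocyte-like nuclei and Gjc1 at 300 to 532 CPM in pericyte-like nuclei, each above every other class drawn.

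Cdh2 (ENSRNOG00000015602) encodes N-cadherin, the adhesion molecule of the adherens junction in cardiac muscle. It had 2202, 1499, 1107 and 1593 CPM in cardiomyocyte-like nuclei of libraries 1 to 4, against 255, 407, 124 and 156 CPM in the other named nuclei of the same libraries. It was higher in every library, with folds of 8.65 (8.24 to 9.08), 3.69 (3.38 to 4.03), 8.96 (8.62 to 9.32) and 10.2 (9.72 to 10.7). Among cardiomyocyte-like nuclei 93.6, 66.7, 66.6 and 59.1% held at least 1 Cdh2 UMI. In macrophage-like nuclei, which are not known to carry N-cadherin junctions, the share was 15, 10.5 and 11.7% in libraries 1, 3 and 4. Thinning each nucleus to 1000 UMIs dropped those with fewer. It kept 2576, 393, 1445 and 922 cardiomyocyte-like nuclei, and 64, 3824 and 498 macrophage-like ones. In the nuclei kept the shares were 82.3, 70.7, 56.8 and 61.9%, against 1.56, 6.33 and 6.43% in macrophage-like nuclei. The sets differ from those before thinning, and the part of depth was not tested. Median depths before thinning were 2596, 1341, 2737 and 2246.5 UMIs for cardiomyocyte-like nuclei, against 816.5, 1539 and 1433 UMIs for macrophage-like ones.

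Ctnna3 encodes αT-catenin, which links cadherins to actin and is enriched in heart muscle. Its level was 990, 415, 303 and 450 CPM in cardiomyocyte-like nuclei of libraries 1 to 4, against 129, 71.5, 15.4 and 24.9 CPM in the other named nuclei. The folds were 7.69 (7.19 to 8.24), 5.81 (4.76 to 7.14), 19.7 (17.8 to 21.8) and 18 (16.1 to 20.3). Both the level in cardiomyocyte-like nuclei and that in the other nuclei were highest in library 1, and the folds were highest in libraries 3 and 4.

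Dsp (ENSRNOG00000013928) encodes desmoplakin, which ties desmosomes to desmin filaments. It had 491, 319, 146 and 226 CPM in cardiomyocyte-like nuclei, against 45.3, 68.6, 23.3 and 33.3 CPM in the other named nuclei, and the folds were 10.8 (9.69 to 12.2), 4.66 (3.78 to 5.78), 6.26 (5.69 to 6.89) and 6.79 (6.08 to 7.59). Dsc2 (ENSRNOG00000039969), a desmosomal cadherin, had 27.6, 16.1, 18.1 and 25.1 CPM in cardiomyocyte-like nuclei, against 2.88, 4.1, 3.08 and 2.72 CPM in the others. Its folds were 9.57 (6.11 to 15.8), 3.93 (1.6 to 11), 5.89 (4.49 to 7.76) and 9.23 (6.34 to 13.7), and the value in library 2 rested on 20 and 7 UMIs. For both desmosomal genes the cardiomyocyte-like level of the lowest library was above the highest level of the other nuclei.

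A gene was counted as higher where its CPM in a class was at least 2-fold that of the other named nuclei in every library. In cardiomyocyte-like nuclei 4 of the 9 measured members met this (Cdh2, Dsp, Dsc2 and Ctnna3) and 0 were at least 2-fold lower in every library. All 9 members had at least 30 UMIs and were in the comparison. Of 15893 genes with at least 30 UMIs, 4.66% were higher by the same rule and 2.19% were lower. The median log2 ratio was 1.22 over the members and -0.39 over all genes in the comparison. Scaling by the median of ratios moved the median of all genes to -0.04, and Gja1 then joined the 4, with 6.13% of genes higher. Without the cardiomyocyte-like cluster of highest UMI count, 2 members (Dsp and Ctnna3) met the rule, against 1.88% of genes. That left 616 and 621 cardiomyocyte-like nuclei in libraries 3 and 4, with estimated free RNA shares at the limit of 100%.

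**Figure D2:**
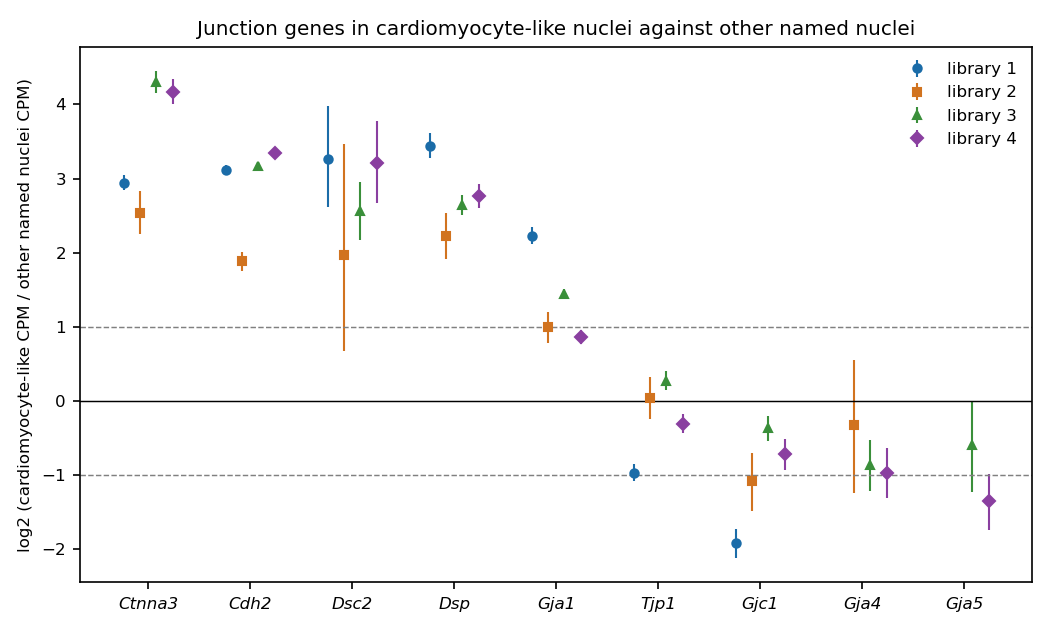
Log2 ratio of CPM in cardiomyocyte-like nuclei to CPM in other named nuclei, by member and library, with conditional binomial 95% intervals; dashed lines mark 2-fold, and ratios with 3 or fewer UMIs on a side are left out. Ctnna3, Cdh2, Dsc2 and Dsp lie above 2-fold in all 4 libraries, and Gja1 lies between 1.82-fold and 4.69-fold.

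Gja1 (ENSRNOG00000000805) encodes connexin 43, the main gap junction protein of the working ventricle. It had 434, 386, 350 and 333 CPM there, against 92.5, 194, 129 and 183 CPM in the other named nuclei. The folds were 4.69 (4.32 to 5.1), 1.99 (1.72 to 2.29), 2.72 (2.59 to 2.86) and 1.82 (1.71 to 1.94), so it was higher in each library, but under 2-fold in 2 of the 4. With the estimated free RNA taken off, its level was 498, 547, 763 and 509 CPM in cardiomyocyte-like nuclei. It was then at least 2-fold higher in every library, as 6.92% of genes were, against 4.66% before. By construction this step lowers the level outside a gene's own class, so it does not settle the call.

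Gja1 was also present in endothelial classes. Lymphatic endothelial-like nuclei had 248, 240 and 297 CPM in libraries 1, 3 and 4, and endothelial-like nuclei had 133, 241, 158 and 215 CPM in libraries 1 to 4. In library 4 the interval of the lymphatic endothelial-like level (239 to 364 CPM) overlapped that of cardiomyocyte-like nuclei (318 to 349 CPM), and in libraries 1 and 3 the intervals did not overlap. Pericyte-like nuclei had 54.8, 134, 102 and 99.3 CPM and macrophage-like nuclei had 109, 99.5 and 80.5 CPM. Taking off free RNA left 0 CPM of Gja1 in pericyte-like nuclei of every library and in macrophage-like nuclei of libraries 3 and 4, but 241, 312 and 334 CPM in lymphatic endothelial-like nuclei.

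Gjc1 (ENSRNOG00000048838) encodes connexin 45 and was highest in pericyte-like nuclei, the mural cells of small vessels. Its level was 532, 441, 300 and 314 CPM there, against 52.5, 76.2, 52.9 and 51.3 CPM in the other named nuclei. The folds were 10.1 (8.95 to 11.5), 5.79 (4.41 to 7.53), 5.67 (5 to 6.41) and 6.11 (5.33 to 6.99), and the groups did not overlap. The median of the next class, lymphatic endothelial-like nuclei, was 94.5 CPM. Cardiomyocyte-like nuclei had 32.4, 59.7, 48.2 and 43.8 CPM of Gjc1, against 122, 127, 62.2 and 72.1 CPM in the other named nuclei, lower in each library. Where the mural nuclei were clustered again, Gjc1 was at 623, 328 and 383 CPM in the nuclei with the clearest pericyte markers in libraries 1, 3 and 4, against 371, 233 and 269 CPM in the other mural nuclei. Smooth muscle-like nuclei, of which there were 39, 20 and 61, had 514, 179 and 364 CPM, with intervals that held the level of the other mural nuclei in library 1 (336 to 753 CPM, against 534 CPM) and in library 4 (279 to 466 CPM, against 302 CPM). The 20 smooth muscle-like nuclei of library 3 had 11 Gjc1 UMIs, and their interval (89.4 to 320 CPM) also held the level of the others, 308 CPM.

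Gja4 (ENSRNOG00000014357, connexin 37) and Gja5 (ENSRNOG00000017484, connexin 40) had few UMIs, 1896 and 1115 over all barcodes. Gja4 had 7.67, 29.4, 49.9 and 49.9 CPM in endothelial-like nuclei, against 2.69, 12.8, 11.7 and 15.3 CPM in the other named nuclei, and its folds were 2.85 (1.6 to 4.98), 2.3 (1.23 to 4.2), 4.25 (3.65 to 4.96) and 3.27 (2.72 to 3.95). Gja5 had 18.7, 22, 15.9 and 51.2 CPM in endothelial-like nuclei, against 0.95, 2.65, 3.04 and 12.7 CPM in the others, with folds of 19.7 (10.4 to 40.3), 8.33 (3.05 to 26.2), 5.22 (3.91 to 6.98) and 4.03 (3.31 to 4.91). Both were higher in each library. These were the 2 members that met the 2-fold rule in endothelial-like nuclei, where 3.62% of the 15893 genes did. Another 3 members (Dsp, Dsc2 and Ctnna3) were at least 2-fold lower there in every library, against 6.22% of genes, with only 3 Dsc2 UMIs in library 2. Gja4 was also in pericyte-like nuclei at 33.7, 27.9, 34.5 and 27.9 CPM, and in library 1 this was above the endothelial-like level (21.6 to 50.2 CPM, against 4.86 to 11.5 CPM). Only 1 member kept the endothelial rule in each of 3 alternatives: Gja5 without removal of doublets or with at least 1000 UMIs per nucleus, and Gja4 at a Leiden resolution of 0.5. The shares of all genes that met it there were 3.41, 3.52 and 3.66%.

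Clustering the endothelial-like nuclei again, without the junction genes, separated arterial endothelial-like nuclei (234, 227 and 320 in libraries 1, 3 and 4) and endocardial endothelial-like nuclei (133, 88, 517 and 255 in libraries 1 to 4). The endocardial name rests on 3 markers. Most Gja5 UMIs lay in the arterial nuclei. It had 167, 174 and 359 CPM in arterial endothelial-like nuclei, against 2.95, 3.69 and 12.6 CPM in the remaining endothelial-like nuclei of libraries 1, 3 and 4. The folds were 56.7 (26.6 to 139), 47.2 (29.1 to 79.5) and 28.4 (22.1 to 36.8). Of the Gja5 UMIs in endothelial-like nuclei of these libraries 48, 80 and 285 came from arterial endothelial-like nuclei and 8, 22 and 80 from the rest. In endocardial endothelial-like nuclei Gja5 was at 4.64, 0, 4.06 and 11.4 CPM in libraries 1 to 4, where the count of 0 in library 2 has an upper bound of 15.2 CPM.

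Gja4 was shared between both subclasses in libraries 3 and 4 but not in library 1. Arterial endothelial-like nuclei had 59.2, 113 and 153 CPM of Gja4 in libraries 1, 3 and 4, against 2.21, 45.1 and 36.9 CPM in the rest, which gave folds of 26.8 (10.1 to 82.9), 2.51 (1.83 to 3.39) and 4.15 (3.31 to 5.19). Endocardial endothelial-like nuclei had 4.64, 33, 125 and 130 CPM in libraries 1 to 4, against 7.9, 27.4, 22.3 and 33.2 CPM in the rest. In library 1 that was 1 UMI, and in library 2 the fold of 1.2 had an interval (0.427 to 3.2) on both sides of 1. In libraries 3 and 4 the folds were 5.61 (4.42 to 7.16) and 3.9 (3.15 to 4.83), and the intervals of the 2 subclasses overlapped. In endothelial-like nuclei assigned to neither subclass Gja4 was at 2, 21.7, 12.5 and 14.5 CPM. The endocardial markers were themselves uneven between libraries, at a summed 2423, 309, 680 and 479 CPM in endocardial endothelial-like nuclei of libraries 1 to 4; their part in the Gja4 values was not tested.

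Cdh2 marked the endocardial endothelial-like nuclei within the endothelium. It had 604, 1023, 499 and 628 CPM there, against 176, 231, 64.8 and 52.7 CPM in the remaining endothelial-like nuclei. The folds were 3.42 (2.8 to 4.16), 4.44 (3.51 to 5.65), 7.69 (6.74 to 8.8) and 11.9 (10.4 to 13.6), so it was higher in all 4 libraries. Cardiomyocyte markers in endocardial endothelial-like nuclei were at 1527, 1654, 1006 and 933 CPM, below their 2449, 2483, 1324 and 1292 CPM in endothelial-like nuclei assigned to neither subclass. Arterial endothelial-like nuclei had 146, 71.7 and 66.7 CPM of Cdh2. Gja1 did not separate the subclasses in this way: its folds were 0.577 (0.361 to 0.878), 0.977 (0.756 to 1.24) and 1.27 (1.09 to 1.47) in arterial endothelial-like nuclei against the rest, with directions that differed between libraries 1 and 4.

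**Figure D3:**
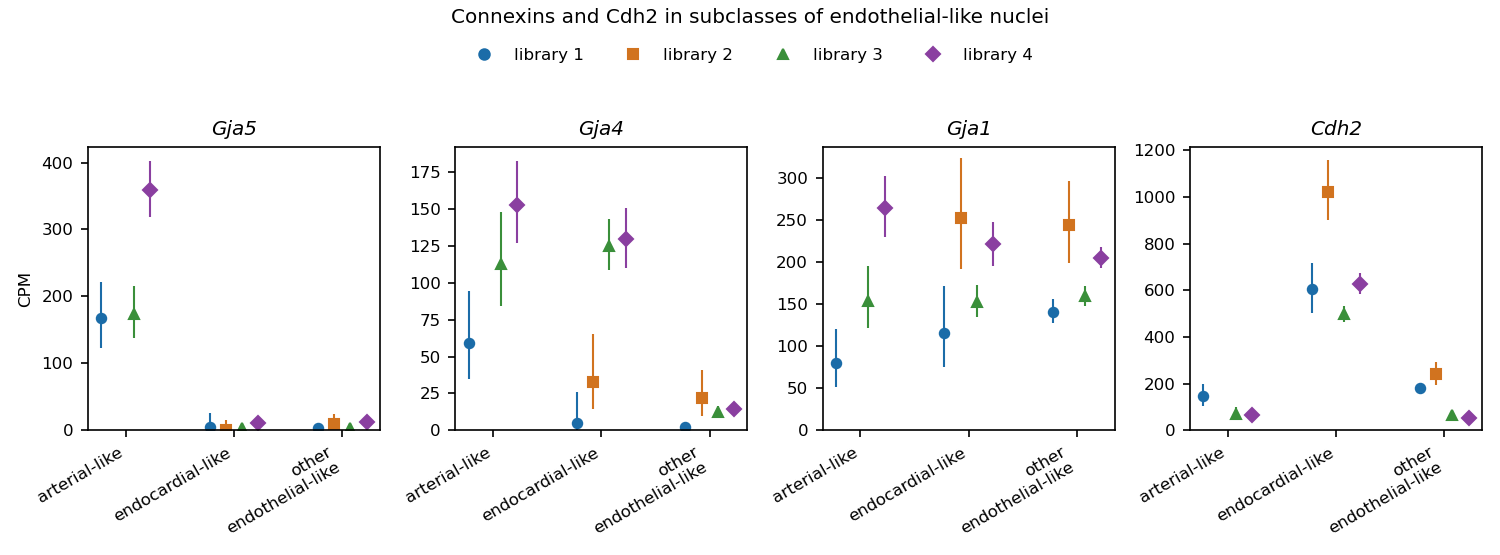
CPM of Gja5, Gja4, Gja1 and Cdh2 in arterial, endocardial and other endothelial-like nuclei, with 1 point per library and exact 95% Poisson intervals; library 2 had too few arterial endothelial-like nuclei to be drawn. Gja5 is high only in the arterial nuclei drawn (167 to 359 CPM), Cdh2 only in the endocardial ones (499 to 1023 CPM), and Gja4 is high in both in libraries 3 and 4.

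Tjp1 (ENSRNOG00000011077) encodes ZO-1, a scaffold of tight junctions that also binds connexin 43. Endothelial-like nuclei had 370, 165, 163 and 231 CPM, against 118, 145, 60.9 and 109 CPM in the other named nuclei, and the folds were 3.13 (2.89 to 3.38), 1.14 (0.909 to 1.41), 2.67 (2.47 to 2.88) and 2.11 (1.96 to 2.28). Library 2 was the exception, since its interval held 1. Without library 2, Tjp1 met the 2-fold rule as well, as 5.16% of genes did. Cardiomyocyte-like nuclei had 115, 152, 90.9 and 133 CPM of Tjp1, against 226, 148, 75.3 and 165 CPM in the other named nuclei. That was lower in libraries 1 and 4, higher in library 3 (1.21-fold, 1.11 to 1.32) and level within counting error in library 2.

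Some members had a second class. Schwann-like nuclei, the glia of cardiac nerves, had 835, 278 and 565 CPM of Cdh2 and 952, 99.8 and 194 CPM of Ctnna3 in libraries 1, 3 and 4. In library 1 Ctnna3 was close to the cardiomyocyte-like level (796 to 1131 CPM, against 968 to 1011 CPM) and was seen in 54.1% of 111 Schwann-like nuclei with a median of 966 UMIs, against 7.5% of macrophage-like nuclei with a median of 816.5 UMIs. Cardiomyocyte markers, all 7 of them detected, summed to 6512, 2282 and 3965 CPM in Schwann-like nuclei and to 3027, 1561 and 2096 CPM in macrophage-like nuclei; their part in the Schwann-like values was not tested. Ctnna3 was also high in smooth muscle-like nuclei, at 1304, 374 and 458 CPM, against 233, 52 and 91 CPM in the other mural nuclei of libraries 1, 3 and 4. The folds there were 5.6 (4.13 to 7.52), 7.2 (4.18 to 12.1) and 5.03 (3.58 to 7.09). Dsp was at 159, 153 and 130 CPM in lymphatic endothelial-like nuclei, with intervals of 108 to 224, 119 to 194 and 93.2 to 178 CPM, whereas endothelial-like nuclei had 40.7, 23.6 and 26.1 CPM in the same libraries. In library 3 the lymphatic endothelial-like level of Dsp overlapped the cardiomyocyte-like level (138 to 155 CPM). Dsc2 reached 18.8 and 22.4 CPM in T or NK cell-like nuclei of libraries 3 and 4, on 19 and 8 UMIs, which overlapped its cardiomyocyte-like level, and had 1 UMI there in library 1. Gja5 was at 58.8 (28.2 to 108) CPM in Schwann-like nuclei of library 4, on 10 UMIs, against 51.2 CPM in endothelial-like nuclei. In T or NK cell-like nuclei of library 1 it was at 28.5 (7.77 to 73) CPM, on 4 UMIs, against 18.7 CPM. Both classes had less Gja5 than endothelial-like nuclei in their other libraries.

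Fibroblast-like and macrophage-like nuclei were low in most members. In fibroblast-like nuclei 0 members were at least 2-fold higher in every library, against 3.5% of 15893 genes, and 6 were at least 2-fold lower (Gja4, Gja5, Cdh2, Dsp, Dsc2 and Ctnna3), against 5.18% of genes. Some of these calls rest on few UMIs. In libraries 1 and 2 Gja5 had 0 and 1 UMIs, Dsc2 had 3 and 0, and Gja4 had 5 and 5. The intervals of the Gja4 folds there held 1 (0.133 to 1.06 and 0.146 to 1.18). In macrophage-like nuclei of libraries 1, 3 and 4 6 members were at least 2-fold lower (Gjc1, Cdh2, Dsp, Dsc2, Ctnna3 and Tjp1), against 14.3% of 15770 genes. There Dsc2 had 1, 19 and 3 UMIs, and Gjc1 had 1 UMI in library 1. Library 2 held too few macrophage-like nuclei for a value. The median log2 ratio of the members was -1.72 in fibroblast-like nuclei and -1.64 in macrophage-like nuclei, and over all genes it was 0.12 and -0.07. The other named nuclei include the cardiomyocyte-like ones, which held most UMIs of Cdh2, Dsp and Ctnna3. Without the cardiomyocyte-like cluster of highest UMI count, 3 members (Gjc1, Cdh2 and Tjp1) remained lower in macrophage-like nuclei, against 12% of genes.

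Cardiomyocyte-like nuclei came from different clusters in different libraries. Library 1 lay in cluster 4 (2644 nuclei), library 2 in clusters 17 (390) and 121 (214), and libraries 3 and 4 in clusters 6 (1106 and 715) and 10 (585 and 590). The names of clusters 10 and 121 were near the limit of the naming rule, a mean marker log2 fold 0.5 above the next class. This fold was 1.6 in cluster 10, against 1.08 for erythroid markers, with 7 markers passed. In cluster 121 it was 1.04, against 0.49 for macrophage markers, with 3 markers passed. Cluster 10 is led by the heat shock genes Hspa1b and Hsph1, the sarcomere genes Myh6, Myh7, Actc1 and Acta1, and Xirp2, Nppa, Ankrd1 and AABR07052585.1. It has a median of 1044 UMIs in library 3 and 806 in library 4, and its estimated free RNA share was at the limit of 100%. Cluster 6 had medians of 4336.5 and 5110 UMIs and estimated free RNA shares of 65.2 and 57.1%.

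The junction genes differed sharply between these clusters. Cdh2 was at 136 and 206 CPM in cluster 10 of libraries 3 and 4, against 1213 and 1774 CPM in cluster 6 of the same libraries. Ctnna3 was at 16.1 and 28.9 CPM in cluster 10 and at 331 and 495 CPM in cluster 6, and Dsc2 at 2.69 and 3.4 CPM and at 19.9 and 27.5 CPM. None of these intervals overlapped between the clusters within a library. The cluster 10 levels of these genes were near those of fibroblast-like nuclei of libraries 3 and 4. Those nuclei had 143 and 181 CPM of Cdh2, 9.94 and 13.6 CPM of Ctnna3, and 2.53 and 1.89 CPM of Dsc2. With a free RNA share at the limit of 100%, the part of such RNA in the cluster 10 levels was not tested. Dsp and Gja1 differed less: Dsp was at 90.1 and 133 CPM in cluster 10 and at 152 and 237 CPM in cluster 6, and Gja1 at 222 and 189 CPM and at 362 and 352 CPM. In cluster 10 both were above fibroblast-like nuclei, which had 13.8 and 28.4 CPM of Dsp and 129 and 136 CPM of Gja1. Dsp was also above all nuclei named as other classes, which had 23.3 and 33.3 CPM. For Gja1 those nuclei had 129 CPM in library 3, and their 183 CPM in library 4 lay within the cluster 10 interval (155 to 227 CPM). Endothelial-like nuclei had 158 and 215 CPM of Gja1. Lymphatic endothelial-like nuclei had 240 and 297 CPM of Gja1, and 153 and 130 CPM of Dsp. Tjp1 did not separate them in library 3, with 82 (62.7 to 105) CPM in cluster 10 and 91.9 (84.8 to 99.5) CPM in cluster 6, and was lower in library 4, with 93.4 (70.4 to 122) CPM in cluster 10 and 136 (125 to 147) CPM in cluster 6.

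Thinning to 1000 UMIs kept 331 and 202 nuclei of cluster 10 in libraries 3 and 4. The shares of nuclei with Cdh2, Ctnna3, Dsp and Gja1 still differed between the clusters without overlap of intervals. For Dsc2 the intervals overlapped in library 3 (0.00765 to 1.67%, against 1.42 to 3.26%), and for Tjp1 they overlapped in both libraries. Cdh2 was then detected in 12.1 and 12.9% of nuclei of cluster 10, against 69.4 and 76.8% of cluster 6, and Gja1 in 19 and 14.9%, against 32.1 and 31.2%. Cardiomyocyte markers summed to 4023 and 4937 CPM in cluster 10 and to 9778 and 13118 CPM in cluster 6, and fibroblast markers to 3570 and 2703 CPM and to 1716 and 875 CPM. These markers moved with the junction genes, and their part in the difference was not tested. In library 2 the small cluster 121 likewise had less Cdh2 than cluster 17, 503 (397 to 630) CPM against 1643 (1566 to 1724) CPM, and less Ctnna3, 132 (80.9 to 205) CPM against 457 (417 to 501) CPM. Cluster 121 also had a lower median depth (638.5 UMIs, against 2011.5), an estimated free RNA share at the limit of 100% (against 53%), fewer cardiomyocyte markers (9453 CPM, against 21326 CPM) and more fibroblast markers (1683 CPM, against 594 CPM), and their part in the difference was not tested.

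**Figure D4:**
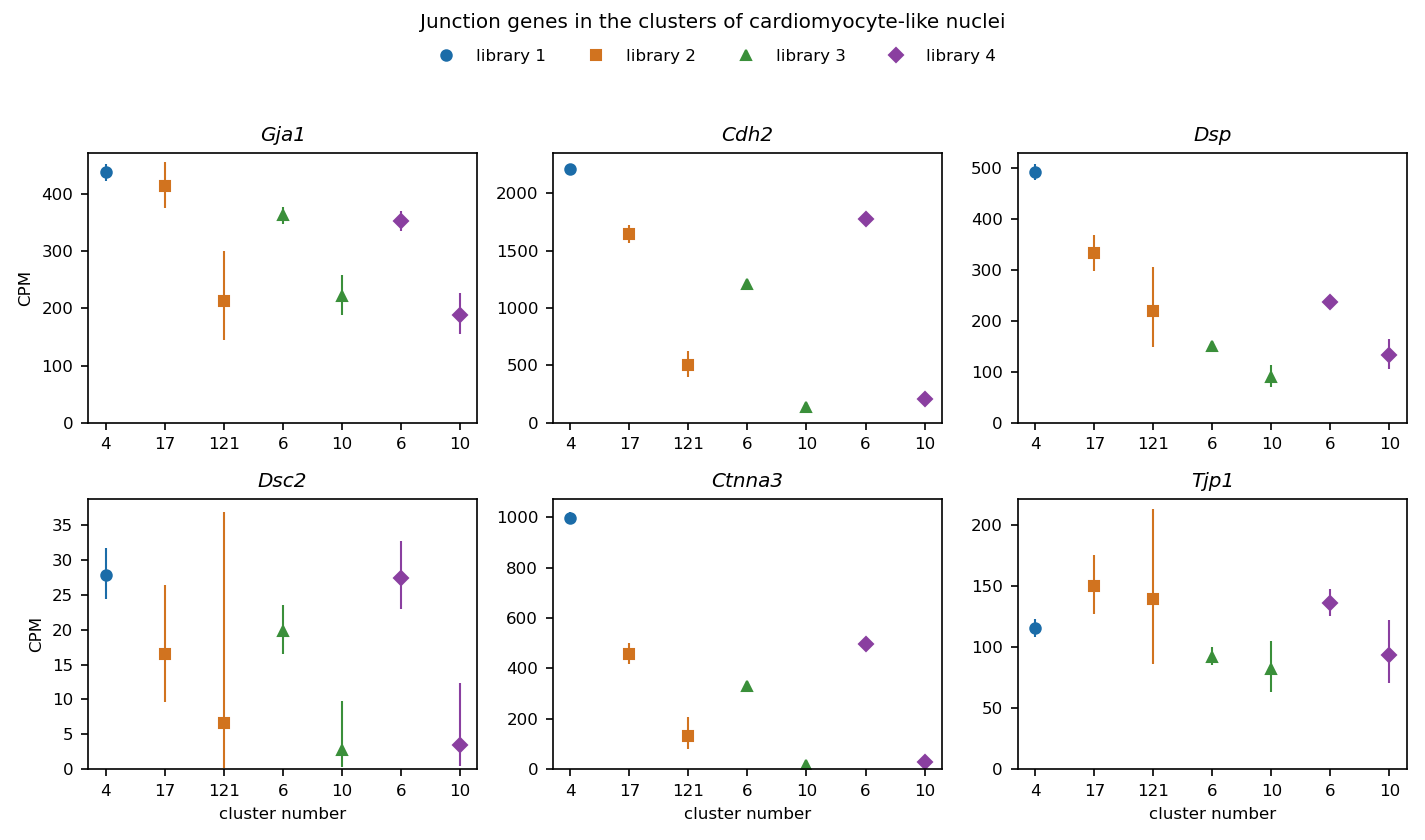
CPM of 6 members in each cluster of cardiomyocyte-like nuclei, coloured by library, with exact 95% Poisson intervals; each panel starts at 0. Cdh2, Ctnna3 and Dsc2 are near the floor of the panel in cluster 10, while Gja1 there is at 222 and 189 CPM, and Tjp1 at 82 and 93.4 CPM.

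Between libraries, cardiomyocyte-like nuclei of library 1 were set against the mean of the other 3 on the log2(CPM + 10) scale, which understates differences of low genes. Ctnna3 was higher by 1.34 and Dsp by 1.12, and Gja4 was at -1.23, with 0.24 CPM in library 1 (2 UMIs) against 14.5, 11.1 and 17 CPM in libraries 2 to 4. Cdh2 was at 0.67, Dsc2 at 0.35, Gja1 at 0.28, Tjp1 at -0.08, Gjc1 at -0.51 and Gja5 at -0.57. Thus 2 of 9 members were at least 2-fold higher in library 1, against 2.74% of 13520 genes, and 1 was at least 2-fold lower, against 20.8%. The median difference was 0.28 over the members and -0.41 over all genes. With the estimated free RNA taken off, Ctnna3 was at 1155, 773, 844 and 967 CPM and Dsp at 577, 566, 377 and 459 CPM in libraries 1 to 4, and 0 members passed 2-fold in either direction. All 8 fibroblast markers measured were detected in cardiomyocyte-like nuclei and summed to 92.8 CPM in library 1, against 730, 1900 and 1075 CPM in libraries 2 to 4, and their part in these differences was not tested. Without library 3 the difference of Dsp was under 2-fold, and without cluster 6, 4 members (Cdh2, Dsp, Dsc2 and Ctnna3) were at least 2-fold higher in library 1.

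In the other large classes library 1 also had more Ctnna3 before free RNA was taken off. Fibroblast-like nuclei came from different clusters by library: 2345 of library 1 lay in cluster 5, 2952 of library 3 and 813 of library 4 in cluster 3, and 183 and 77 of library 2 in clusters 205 and 207. In fibroblast-like nuclei Ctnna3 was at 82.9 CPM in library 1, against 57.6, 9.94 and 13.6 CPM in libraries 2 to 4, and it was the 1 member at least 2-fold higher (1.55), as 3.06% of genes were. Free RNA subtraction took Ctnna3 to 0 CPM in fibroblast-like nuclei of all 4 libraries. Gja1 was the 1 member at least 2-fold lower (-1.30), as 11.6% of genes were, at 48.6 CPM in library 1 against 138, 129 and 136 CPM in libraries 2 to 4, and the intervals of library 1 (40.9 to 57.3) and the others did not overlap. With free RNA taken off, Gja1 in fibroblast-like nuclei was at 2.67 CPM in library 1, against 19.8, 91.1 and 77.7 CPM, so library 1 stayed lowest. Cardiomyocyte markers in fibroblast-like nuclei summed to 2256 CPM in library 1, against 2578, 884 and 1306 CPM in libraries 2 to 4. The part of the markers and of the clusters in these differences was not tested.

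In endothelial-like nuclei Ctnna3 was higher in library 1 (1.71, with 2.74% of 12983 genes past 2-fold) and Gja4 was lower (-1.56, with 11.3%). These nuclei too lay mostly in different clusters, 1753 of library 1 in cluster 7, 2026 of library 3 and 1759 of library 4 in cluster 2, and 206 of library 2 in cluster 204, and the clusters' part was not tested. With free RNA taken off, Ctnna3 was at 0 CPM in endothelial-like nuclei of all 4 libraries. In pericyte-like nuclei, which all lay in cluster 9, Ctnna3 was higher (1.15, with 3.82% of 9915 genes) and 0 of the 8 members with enough UMIs were at least 2-fold lower, against 14.3% of genes. Clustered again, these nuclei split by library: 524 of library 1 and 0 of library 3 lay in 1 pericyte-like subcluster, and 361 and 218 of libraries 3 and 4 in another. The class also holds the smooth muscle-like nuclei, with 66, 23 and 78 of its 220, 71 and 144 Ctnna3 UMIs in libraries 1, 3 and 4. The part of the subclusters was not tested. With free RNA taken off, Ctnna3 in pericyte-like nuclei was at 205 CPM in library 1, against 265, 67.4 and 203 CPM in libraries 2 to 4, so library 1 was no longer highest. Gja1 in pericyte-like nuclei differed by -0.90, which did not pass 2-fold, and was at 0 CPM in all 4 libraries with free RNA taken off. Libraries 2 to 4, each set against the mean of the others, differed too, so library 1 was not the only one that departed. Their largest difference was -1.12 for Dsp (library 3) in cardiomyocyte-like nuclei and -1.41 for Ctnna3 (library 3) in fibroblast-like ones. It was 1.47 for Cdh2 (library 2) in endothelial-like nuclei and -1.46 for Ctnna3 (library 3) in pericyte-like ones. Shares over all genes were taken for library 1 alone. Since the libraries are not tied to samples, none of these differences can be read as an effect of infarction.

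Other junction genes were counted over 43 genes listed by role. Of the 40 with at least 30 UMIs, 12 were at least 2-fold higher in cardiomyocyte-like nuclei in every library and 1 was lower (F11r, a tight junction adhesion molecule), with a median log2 ratio of -0.12. Over all genes in the comparison 4.66% were higher and 2.19% lower, with a median of -0.39. Partners of the intercalated disc gave 7 of 8 higher, with a median of 2.96. Nrap, an actin-binding protein of the disc, had 681, 561, 328 and 464 CPM in cardiomyocyte-like nuclei, against 58.4, 77.9, 24.5 and 31.4 CPM in the other named nuclei (median log2 ratio 3.64). Ank3, a membrane scaffold of the ankyrin family, was at 1.89, although its highest class was Schwann-like nuclei, and Tmem65 was at 0.30.

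Desmosome genes gave 3 of 6 higher. Dsg2, the partner cadherin of Dsc2, had 112, 81.5, 62.7 and 88.9 CPM in cardiomyocyte-like nuclei, against 8.5, 17.6, 6.93 and 10.1 CPM in the others (3.16). Perp, a membrane protein of desmosomes with 3.23 to 6.79 CPM in cardiomyocyte-like nuclei, was at 1.79, although its highest class was Schwann-like nuclei. Des, the desmin gene, was at 1.16 and is named because it completes the count. Evpl and Ppl, plakins known from epithelia, were at -1.47 and -1.42. Adherens junction genes gave 0 of 11 in either direction: Vcl (vinculin) and Ctnna1 (αE-catenin) had the highest ratios, 0.99 and 0.74, and Cdh11 and Cdh5, cadherins of fibroblasts and endothelium, the lowest, -1.60 and -1.44. The same ratio was 3.14 for Cdh2 and 3.56 for Ctnna3.

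Tight junction genes gave 1 of 11 higher and 1 lower. Cxadr, the coxsackievirus and adenovirus receptor, had 140, 91.9, 68.2 and 71.9 CPM in cardiomyocyte-like nuclei, against 10.7, 17, 12.1 and 13.5 CPM in the others (2.47), and Magi1 was at 0.58. Esam and Jam2, adhesion molecules of endothelium, were at -1.56 and -1.41. Of the other connexins and pannexin, 4 of 7 had enough UMIs and 1 was higher. That was Gja3 (connexin 46), with 27.8, 8.87, 15.1 and 13.2 CPM in cardiomyocyte-like nuclei, against 2.47, 0, 1 and 0.529 CPM in the other named nuclei; it is named after its values were seen. Panx1, a channel protein related to the gap junction, was at -1.44.

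Genes whose pattern was most like that of each member were found by Pearson correlation of log2(CPM + 10) over 34 class-by-library sums from 11 classes, among 12400 genes. The sums share libraries, depth and free RNA, so r is a description. Genes close to Dsp included Ptpn3 (r = 0.87) and Veph1 (0.86), and Ctnna3 was closest to Myom1 (0.95), Synpo2 and Akap6 (both 0.94). For Cdh2 these were Shroom3, Cap2 and Pdlim3 (each 0.93). Genes close to Gjc1 included Gucy1b1 (0.88) and Mindy4 (0.87), and Tjp1 was closest to Sptbn1 and Tanc1 (both 0.92) and Fam171a1 (0.89). The connexins of endothelium were less tightly matched: Gja5 with Ifitm10 and Sox17 (both 0.81) and Tmem255b (0.79), where Sox17 is also an arterial marker used to name the subclass, and Gja4 with Tm4sf1 (0.81), Apln (0.75) and Ptn (0.74). Gja1 was closest to Myzap (0.80), Reep1 (0.76) and Ddah1 (0.73), and Dsc2 to Plin5 and Cmbl (both 0.75) and Dok7 (0.74). Among the members, the pair most alike was Cdh2 and Ctnna3 (0.86), then Gja1 and Dsp (0.69), and r was -0.09 between Gja1 and Gjc1 and -0.01 between Gja1 and Gja4.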

How the data were processed

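A single deposited matrix gives whole UMI counts for each gene in each nucleus. Its file header names cellranger 5.0.1, and the submitters' processing notes name Cell Ranger 6.1.1, Seurat and rn7. Since 6776 deposited symbols are contig names of an older assembly, it is unclear which build was counted, and promoter coordinates come from RefSeq's GRCr8 alone. Per the labels' protocols, nuclei were freed with a Dounce homogeniser and sequenced from 10x 3′ libraries.

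Kept nuclei had at least 500 UMIs, 300 genes and at most 10% mitochondrial UMIs. The highest scrublet scores were removed at 0.8% per 1000 nuclei (scanpy 1.11.5). Leiden clustering at resolution 1 used 2000 variable genes, 30 components and 15 neighbours, with no integration. The 2 large unnamed groups were clustered again, a step chosen after the clusters were seen. That gave 53 clusters, of which 24 were named from markers: at least 3 markers 2-fold higher and in at least 5% of nuclei, with a mean log2 fold 0.5 above the next class. Of 132 marker symbols, 8 matched no row.

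UMIs were summed per class and library (at least 50 nuclei, 20 in subclasses) and divided by the class total. Intervals are exact Poisson for CPM, conditional binomial for ratios and Clopper-Pearson for shares, at 95%, and UMIs without a tie to animals make them counting error only. Free RNA was estimated per class as the part of its UMIs that the library's mean profile must supply to explain markers of other classes, limited to 100%. The members and gene lists were chosen with earlier results of these data known. Named genes were all members, the 2 highest and 2 lowest ratios of each junction list, and the 3 genes most like each member. Some genes that this rule names are not reported here.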

Additional observations from a re-analysis of the deposited data

How the results depend on the processing

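Counting intervals aside, depth limits Gja4, Gja5 and Dsc2 most. Over 11 alternatives, 99 of 99 member ratios in the highest class kept their sign, and 36 moved past the counting interval. Each class was picked as the member's highest in these same data, and the alternatives share most nuclei. A kept sign was therefore likely beforehand. The ranges ran from 1.44 to 7.68 (log2) for Cdh2, 2.45 to 5.81 for Ctnna3, 2.18 to 5.92 for Dsp, 1.75 to 5.13 for Dsc2, 0.99 to 2.64 for Gja1, 2.42 to 4.17 for Gjc1, 1.51 to 3.61 for Gja4, 1.81 to 4.66 for Gja5 and 1.04 to 2.17 for Tjp1. The lowest values of Cdh2, Ctnna3, Dsp and Dsc2 came without the cardiomyocyte-like cluster of highest UMI count. The highest came with free RNA subtracted, which by construction lowers the level outside a gene's own class.

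Members higher in endothelial-like nuclei numbered 1 instead of 2 without removal of doublets, with at least 1000 UMIs per nucleus and at resolution 0.5. Without the cardiomyocyte-like cluster of highest UMI count, members higher in cardiomyocyte-like nuclei numbered 2 instead of 4 (1.88% of genes, against 4.66%). Members lower in macrophage-like nuclei then numbered 3 instead of 6 (12% of genes, against 14.3%). Members higher in library 1 within cardiomyocyte-like nuclei then numbered 4 instead of 2. That last count was also 4 under median-of-ratios scaling, which brought the median of all genes there to -0.00, against -0.41, and 0 after free RNA subtraction, as was the count of lower members. With a pseudocount of 1 CPM the lower members in library 1 numbered 2 in cardiomyocyte-like and 3 in fibroblast-like nuclei. The cause of these shifts was not tested.

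Leaving out each library in turn gave 4 to 4 members higher in cardiomyocyte-like, 2 to 3 in endothelial-like and 0 to 0 in fibroblast-like nuclei, 6 to 8 lower in macrophage-like nuclei, and 1 to 2 higher in library 1 within cardiomyocyte-like nuclei, where the value of 1 came without library 3. Leaving out the cardiomyocyte-like cluster of lowest UMI count, chosen after seeing the data, changed none of the counts. No paired analysis was possible because the libraries are not tied to samples.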
